A study of Rattus norvegicus with 8 samples.

Results

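The genes described here make, break down and regulate the polyamines putrescine, spermidine and spermine. They are Odc1, Amd1, Srm, Sms, Sat1, Smox, Paox, Azin1, Oaz1 and Arg2, 10 genes in all, and their probes were found by gene name on a rat oligonucleotide array, with the older names Amd1a, Sat and Oazin read as Amd1, Sat1 and Azin1. Of the 10 genes, 9 had a probe and were tested, among 23207 genes tested on the array. Paox, the peroxisomal oxidase of acetylated polyamines, had no probe under these names and has no value here. The 9 genes were read by 12 probes, with 2 probes each for Odc1, Amd1 and Azin1. All 12 were well above background in both colours on all 8 arrays, and none was saturated, so no member depended on the filter for dim probes.

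The study asked how telmisartan, a drug that blocks a receptor of angiotensin II, affects prostate cancer development in TRAP rats. These transgenic rats develop adenocarcinoma of the prostate. As background, their transgene is the SV40 T antigen under the probasin promoter, which is active in prostate epithelium. All 8 rats measured were heterozygous male TRAP rats labelled as strain SD, and their ventral prostate was taken at 15 weeks of age. The 4 control rats (Control 102, 103, 104 and 106) had plain diet and water, and the 4 treated rats (Telmisartan 302, 303, 305 and 306) drank telmisartan at 10 mg/kg/day for 12 weeks from 3 weeks of age. The study had 36 rats in 3 groups, and the group at 2 mg/kg/day was not analysed here. The treated label mentions 2 and 10 mg/kg/day, and the higher dose is taken from the design text. Each array set 1 rat's RNA in the Cy5 dye against normal ventral prostate of male F344 rats of 6 weeks in the Cy3 dye. Each value is a log2 ratio of Cy5 over Cy3, so 1 is 2-fold above the reference and -1 is 2-fold below it. The dyes were never swapped. Strain, age, transgene and dye therefore differ together from the reference and cannot be told apart, and levels over the reference are described without a test.

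Polyamines are small cations that bind nucleic acids and are needed for cell growth. Ornithine decarboxylase (Odc1) makes putrescine from ornithine, and S-adenosylmethionine decarboxylase (Amd1) supplies the aminopropyl groups that spermidine synthase (Srm) and spermine synthase (Sms) add to it. Spermidine/spermine acetyltransferase (Sat1) and spermine oxidase (Smox) run the pathway backwards, antizyme (Oaz1) sends Odc1 to the proteasome, and the antizyme inhibitor (Azin1) releases Odc1 from it. The prostate is known for making and secreting large amounts of polyamines, and ventral prostate Odc1 and Amd1 are known to depend on androgen.

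The 60-base probe sequences show what was counted for the enzyme that opens the pathway (Odc1), for the terminal synthase (Sms), for the acetyltransferase (Sat1) and for the probe of Azin1 that read lower than its partner. Each is printed 5′ to 3′ as in the array files, and each holds an open reading frame from end to end in at least 1 of its 3 frames. No base is marked in capitals.
Odc1 probe A_44_P202988: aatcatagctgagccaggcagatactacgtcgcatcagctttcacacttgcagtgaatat
Sms probe A_44_P323914: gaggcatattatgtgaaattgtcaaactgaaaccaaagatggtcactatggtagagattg
Sat1 probe A_42_P812263: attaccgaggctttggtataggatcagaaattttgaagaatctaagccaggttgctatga
Azin1 probe A_44_P438269: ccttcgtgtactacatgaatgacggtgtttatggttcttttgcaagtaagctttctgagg

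Promoter sequence was read from a RefSeq table of the rat assembly GRCr8, in which 8 of the 10 genes had an entry (Azin1 and Arg2 did not). Myc and Max are known to bind the E-box CACGTG, and Odc1 is a textbook Myc target, so this palindrome, which reads the same on both strands, was searched in the 250 bases before each start site. It was present in 2 of the 8 promoters, those of Srm and Oaz1, and in 5.59% of all 33469 promoters of that table (1872 promoters). No other motif and no other stretch of sequence was searched, so an E-box of Odc1 or another member outside these bases would not be seen. In Srm its first base lay 173 bases before the start, and in Oaz1 it lay 234 bases before it. The match is shown in capitals, and it describes the letters only.
Srm, GRCr8 chr5:164308752-164309001, plus strand: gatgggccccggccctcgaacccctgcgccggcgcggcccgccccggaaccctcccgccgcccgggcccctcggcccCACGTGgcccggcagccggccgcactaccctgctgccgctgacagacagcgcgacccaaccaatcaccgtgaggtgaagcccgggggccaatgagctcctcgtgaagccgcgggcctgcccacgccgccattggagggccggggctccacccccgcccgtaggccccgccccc
Oaz1, GRCr8 chr7:9536991-9537240, minus strand: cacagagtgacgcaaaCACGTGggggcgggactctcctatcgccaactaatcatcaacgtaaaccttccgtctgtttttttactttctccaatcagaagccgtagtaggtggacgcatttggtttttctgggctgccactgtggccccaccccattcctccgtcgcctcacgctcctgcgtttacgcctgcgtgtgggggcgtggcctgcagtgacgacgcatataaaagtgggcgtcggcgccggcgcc

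The share of spots well above background in Cy5 was 64.7% to 76.8% in control rats and 59.2% to 68.1% in treated rats, and in the reference it was 48.2% to 52.6% over the 8 arrays. Its part in the group differences was not tested. Markers of the labelled tissue were low: the secretory genes Pbsn (probasin), Msmb and Andpro were more than 2-fold below the reference in all 8 rats, with mean log2 ratios of -2.43, -6.56 and -9.15 in control rats. Luminal epithelial markers had a median of 0.39 in control rats and all 5 proliferation markers were more than 2-fold above the reference in all 8 rats. Immune markers varied between rats: the mean log2 ratio of 27 macrophage, T cell and MHC class II genes ran from 0.685 to 1.99 in control rats and from 0.275 to 1.82 in treated rats. Telmisartan 302 (0.275) and Control 103 (0.685) had the lowest immune levels. In whole tissue, fewer cells of a type and less RNA per cell cannot be told apart. Control arrays always lay at positions 3 and 4 of a slide and treated arrays at positions 1 and 2, so group and position cannot be told apart.

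Over the reference, 3 polyamine genes stood apart. Amd1 and Sms, 2 of the 4 synthesis enzymes, averaged 0.262 and 0.270 times the reference, whereas Sat1, which starts polyamine breakdown, was 4.07-fold above it. The other synthesis enzymes, Odc1 and Srm, and the other breakdown enzyme, Smox, lay nearer to the reference under loess. Counted over the 4 control rats, 1 of 9 members (Sat1) was more than 2-fold above the reference in every rat, as were 5.19% of all genes, and 2 of 9 (Amd1 and Sms) were more than 2-fold below it, as were 4.18% of all genes. The same 3 genes stood past 2-fold in all 8 rats, where the shares of all genes were 3.73% above and 3.29% below.

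Odc1, the rate-limiting enzyme of putrescine synthesis, read -0.69, -1.04, -0.46 and -0.65 in Control 102, 103, 104 and 106. In Telmisartan 302, 303, 305 and 306 it read -0.12, -0.68, -0.50 and -0.33. It was below the reference in all 8 rats, lowest in Control 103 and nearest the reference in Telmisartan 302, and the groups overlapped. A second Odc1 probe gave -0.76, -0.68, -0.42 and -0.57 in the same control rats. Its treated values were -0.23, -0.46, -0.30 and -0.18. Averaged over the 8 rats the 2 probes lay at -0.56 ± 0.27 and -0.45 ± 0.21 (SD, n = 8), 0.679-fold of the reference by the brighter probe, so under loess they shared a side and lay within 1 SD of each other.

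Amd1, which makes the aminopropyl donor from S-adenosylmethionine, read -2.18, -2.03, -1.90 and -2.02 in the control rats. The treated rats gave -1.63, -1.99, -1.94 and -1.79. The values ran in a narrow band from Control 102 at the bottom to Telmisartan 302 at the top. The other Amd1 probe, brighter but without a value on the array of Telmisartan 302 because its spot was marked as an outlier there, ran from -1.91 to -1.36 over 7 rats. Over 8 rats Amd1 averaged -1.94 ± 0.17, with 1.62% of all genes at or below it.

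Sms, the enzyme that turns spermidine into spermine, read -1.82, -1.89, -1.76 and -1.91 in control rats. The treated values were -1.46, -2.32, -2.08 and -1.90. Control rats lay close together (SD 0.07, n = 4) and treated rats were spread on both sides of them (SD 0.36, n = 4). Srm, the spermidine synthase before it, read -1.26, -1.04, -0.73 and -0.85 in control rats. In treated rats it read -0.84, -0.97, -0.83 and -0.79, inside the range of the controls. Its mean over 8 rats was -0.91 ± 0.17, and that of Sms was -1.89 ± 0.25. Amd1 and Sms did not differ beyond their spread over rats, while Srm lay well above both.

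On the breakdown side, Sat1, which acetylates spermidine and spermine for export or oxidation, read 2.28, 2.02, 1.85 and 2.11 in control rats. In treated rats it read 1.55, 2.30, 2.18 and 1.91. Every rat was more than 2-fold above the reference, with Telmisartan 302 the lowest, and 98.1% of all genes lay at or below the Sat1 mean of 2.02 ± 0.25 (n = 8). Smox, which oxidizes spermine back to spermidine, stayed near the reference at 0.10, 0.14, 0.13 and 0.28 in control rats. Its treated values were -0.28, 0.26, 0.32 and -0.16. Telmisartan 302 and 306 lay below the reference and the other 6 rats above it, so Smox had no common side under loess. Under median centring Smox was above the reference in all 8 rats, with a mean of 1.02, or 0.33 relative to the median gene.

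Among the regulators, Oaz1, the antizyme, read 0.44, 0.52, 0.42 and 0.69 in control rats. The treated rats read 0.48, 0.57, 0.54 and 0.68, so the groups covered nearly the same range. Azin1, its inhibitor, read -0.31, -0.06, -0.51 and -0.59 in control rats by its brighter probe. The treated rats gave -0.05, -0.29, -0.63 and -0.35. The Azin1 probe printed above read lower, from -1.26 to -0.84 over the 8 rats. The Azin1 probes thus shared a side but not a size: -0.35 ± 0.22 against -1.10 ± 0.14 (n = 8 each).

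Arg2, the mitochondrial arginase that yields ornithine, read 0.39, 0.93, 0.43 and 0.47 in control rats. It read 0.62, 0.73, 0.54 and 0.61 in treated rats. Control 103 was the highest of the 8, and the groups overlapped. From lowest to highest mean ratio the order under loess was Amd1, Sms, Srm, Odc1, Azin1, Smox, Oaz1, Arg2 and Sat1. In this order Oaz1 and Arg2 (0.54 ± 0.10 and 0.59 ± 0.18) did not differ beyond their spread, whereas Sat1 stood 1 or more log2 units apart from every other member in each group's mean.

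**Figure D1:**
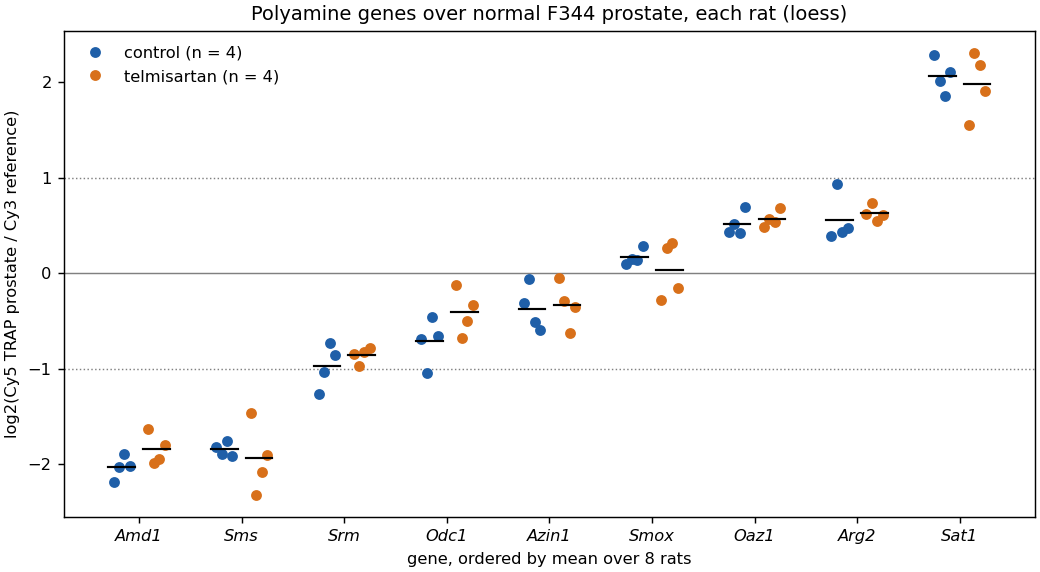
Log2 ratio of TRAP ventral prostate (Cy5) over normal F344 prostate (Cy3) for 9 polyamine genes, ordered by their mean over 8 rats. Points are rats (control blue, telmisartan orange, n = 4 each), short lines are group means and dotted lines mark 2-fold. Amd1 and Sms lie below -1 and Sat1 above 1 in all 8 rats, and the groups overlap for each gene.

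Counted by side alone, Odc1, Amd1, Srm, Sms and Azin1 (5 of 9) were below the reference in all 8 rats under loess normalization, as were 25.7% of all genes, but Odc1, Srm and Azin1 had means above it under median centring. Sat1, Oaz1 and Arg2 (3 of 9) were above it in all 8 rats under loess, as were 30.8% of all genes. Under median centring 6 of 9 were above it in all 8 rats: these 3 with Odc1, Smox and Azin1. Centring each array on its median in place of loess moved the median of all genes from 0.06 to 0.69. It moved the median of the 2611 genes with a mean log2 intensity above 13 from -0.03 to 1.36. Odc1, Srm and Azin1 were among these bright genes, and their means became 0.79, 0.43 and 0.99. The side of Odc1, Srm and Azin1 over the reference thus depended on the scaling. Relative to the median gene of that scaling they stood at 0.10, -0.26 and 0.30, so Srm stayed below the median gene, as under loess (-0.98). Odc1 and Azin1 were below the median gene under loess (-0.62 and -0.41) and above it here. All 3 means were still below the median of the bright genes, 1.36.

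Amd1 and Sms kept their side under every scaling tried. With median centring they were at -0.45 and -0.60, still below the reference in all 8 rats, and at -1.14 and -1.29 relative to the median gene, although no longer more than 2-fold below the reference in all 4 control rats. Sat1 was then at 3.39, or 2.70 relative to the median gene. Oaz1 at 2.01 and Arg2 at 1.79 then also passed 2-fold in all 4 control rats. The scanner software's own ratio gave the same members past 2-fold as loess did, with -1.98 for Amd1, -2.04 for Sms and 2.05 for Sat1.

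**Figure D2:**
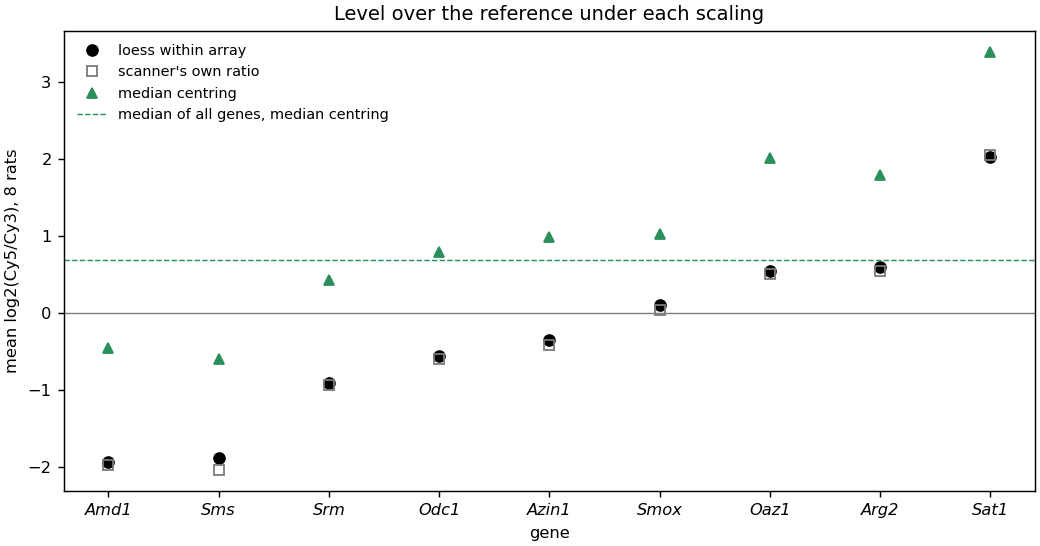
Mean log2 ratio over the reference (8 rats) for each polyamine gene under loess (black circles), the scanner's own ratio (grey squares) and median centring (green triangles), with the median of all genes under median centring as a dashed line at 0.69. Loess and scanner values nearly coincide, all median-centred values are higher, and Amd1 and Sms stay below 0 and below the dashed line while Sat1 stays above both.

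Telmisartan and control rats were then compared to ask whether treatment moved the pathway. No polyamine gene differed at an adjusted p under 0.05 (limma, Benjamini-Hochberg over all genes), and neither did any other gene: 0 of 23207 were called, 0%. At an unadjusted p under 0.05, 1118 genes (4.82%) differed, 636 higher and 482 lower, and 0 of the 9 members were among them. The groups did not overlap for 2.73% of all genes and for 0 of the 9 members. Of the members, 6 had a higher and 3 a lower mean in treated rats, with a median difference of 0.05 log2 units beside -0.002 for all genes, of which 49.44% were higher. Under median centring 59.8% of all genes and 7 of the 9 members were higher.

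Odc1 had the largest difference of the 9, 0.30 log2 units higher in treated rats (SE 0.15, 95% interval -0.045 to 0.65, limma adjusted p = 0.981), a ratio of 1.23. All 4 treated rats were above the control mean of -0.71. The difference was 0.46 on slide 1 and 0.14 on slide 2, 0.19 without Control 103 and 0.20 without Telmisartan 302. The second Odc1 probe gave 0.32 (SE 0.11, limma adjusted p = 0.997 in a fit over all probes, among those under 0.05 before adjustment). The interval of Odc1 covers 0 and reaches 0.65.

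Amd1 was 0.19 higher (SE 0.11, interval -0.054 to 0.44, limma adjusted p = 0.981), again with all 4 treated rats above the control mean. Its other probe differed by 0.01 over 7 rats. Without Telmisartan 302 the Amd1 difference was 0.12. Srm was 0.11 higher (interval -0.16 to 0.39), with a difference of 0.24 on slide 1 and -0.01 on slide 2. Without Control 102 it was 0.016, and without Control 104 it was 0.19.

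Sms was 0.09 lower (interval -0.46 to 0.27) and Sat1 was 0.08 lower (interval -0.45 to 0.29) under loess but 0.03 higher under median centring. Both turned direction with 1 treated rat: Sms was 0.03 higher without Telmisartan 303 and Sat1 was 0.07 higher without Telmisartan 302. Smox was 0.13 lower (interval -0.45 to 0.19), with Telmisartan 302 and 306 as its lowest rats; it was -0.026 without Telmisartan 302, -0.067 without Telmisartan 306, -0.21 without Telmisartan 303 and -0.22 without Telmisartan 305. For Oaz1 (0.05, interval -0.17 to 0.27), Arg2 (0.07, interval -0.22 to 0.36) and Azin1 (0.04, interval -0.30 to 0.38) the difference was smaller than the SD of either group. For Arg2 this rests on Control 103: without it the difference was 0.19 (SE 0.10, limma adjusted p = 0.621). Control 103 is named here because its value stood out. The Arg2 difference was 0.012 without Control 102, 0.026 without Control 104 and 0.038 without Control 106. None of these intervals shows that treated and control rats were alike: they bound the difference at less than 0.65 log2 units in either direction.

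**Figure D3:**
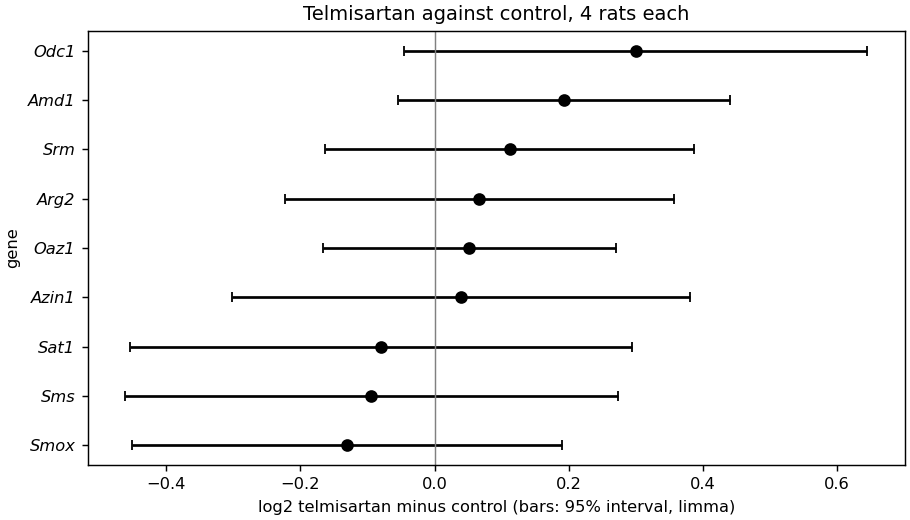
Difference in mean log2 ratio, telmisartan minus control (4 rats each), for each polyamine gene, with 95% intervals from limma. Every interval crosses 0, Odc1 sits highest at 0.30 and Smox lowest at -0.13.

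Markers of other cell types also differed in mean between the groups, none past the adjusted threshold. In treated rats 10 of 11 macrophage, 9 of 9 T cell and 7 of 7 MHC class II markers had a lower mean, with median differences of -0.44, -0.56 and -0.57. All 4 basal epithelial markers had a higher mean (median 0.38), as did 5 of 6 smooth muscle markers (median 0.25). Lower means were found for 4 of 6 luminal, 4 of 6 fibroblast, 2 of 4 endothelial, 3 of 4 striated muscle, 2 of 2 adipocyte and 3 of 5 proliferation markers. Of all genes, 49.44% were higher. Rat by rat the immune means overlapped, at 0.685 to 1.99 in control and 0.275 to 1.82 in treated rats. The part of these markers in the polyamine gene differences was not tested.

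Across the 8 rats the members varied together in places, over rats that share the reference and the dye orientation. Of 36 pairs, 6 had a Pearson permutation p under 0.05 before adjustment and 0 after it. Odc1 and Amd1, the enzymes that open the pathway, ranked the rats alike: Spearman's rho was 0.952 (exact permutation p = 0.00114, adjusted p = 0.0411) and Pearson's r was 0.810 (exact permutation p = 0.0186, adjusted p = 0.167). When the rats most distant from the Odc1 median (Control 103 and Telmisartan 302) were left out, r was 0.875. With slide means removed it was 0.811, with group means removed 0.703, and without Telmisartan 302 alone 0.649.

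Sat1 ran opposite to Amd1 and Sms, as did Smox. For Amd1 and Sat1, r was -0.863 (exact permutation p = 0.00672, adjusted p = 0.167) and rho was -0.690 (p = 0.0694, adjusted p = 0.312, exact permutation). Without Telmisartan 302 and Control 102, r was -0.568. For Sms and Sat1, r was -0.822 (exact permutation p = 0.0151, adjusted p = 0.167), rho was -0.738 (exact permutation p = 0.0458, adjusted p = 0.275), and r was -0.378 without Telmisartan 302 and 303. With group means removed, r was -0.981 for Amd1 and -0.888 for Sms. Both relations weakened without those rats, 1 of which, Telmisartan 302, had the highest Amd1 and Sms and the lowest Sat1 of all 8. After slide means were subtracted r was -0.866 for Amd1 and -0.831 for Sms. For Smox, r was -0.723 with Amd1, -0.730 with Sms and 0.791 with Sat1 (adjusted p = 0.255, 0.255 and 0.167, exact permutation). Without Telmisartan 302 these Smox values were -0.409, -0.451 and 0.537.

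The rats' immune marker level was set beside each of the 9 members. Pearson's r passed the adjusted threshold for 0 of 9. Azin1, by its brighter probe, tended to have lower ratios in rats with more immune signal, with r = -0.859 (exact permutation p = 0.00809, adjusted p = 0.0728). Its rho was -0.667 (exact permutation p = 0.0831, adjusted p = 0.374), and r was -0.850 with slide means removed. Pearson's r was -0.535 without Telmisartan 302 and Control 103, the 2 rats with the lowest immune level, on which it largely rests. The trend did not hold among the rats with the highest immune means. From Telmisartan 305 (immune mean 1.82) through Control 106 and Control 104 to Control 102 (1.99), Azin1 rose from -0.63 to -0.31. The other Azin1 probe was not set against the immune level on its own. Arg2 also ranked lower in rats with more immune signal, with rho = -0.929 (exact permutation p = 0.00223, adjusted p = 0.0201) and r = -0.732 (exact permutation p = 0.0359, adjusted p = 0.162). For Arg2, r was -0.926 without the same 2 rats and -0.643 after subtracting slide means. Sat1 had r = 0.603 and Amd1 r = -0.618 with the immune level (adjusted p = 0.207 for both, exact permutation), and for Sat1 r was 0.004 without those 2 rats.

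**Figure D4:**
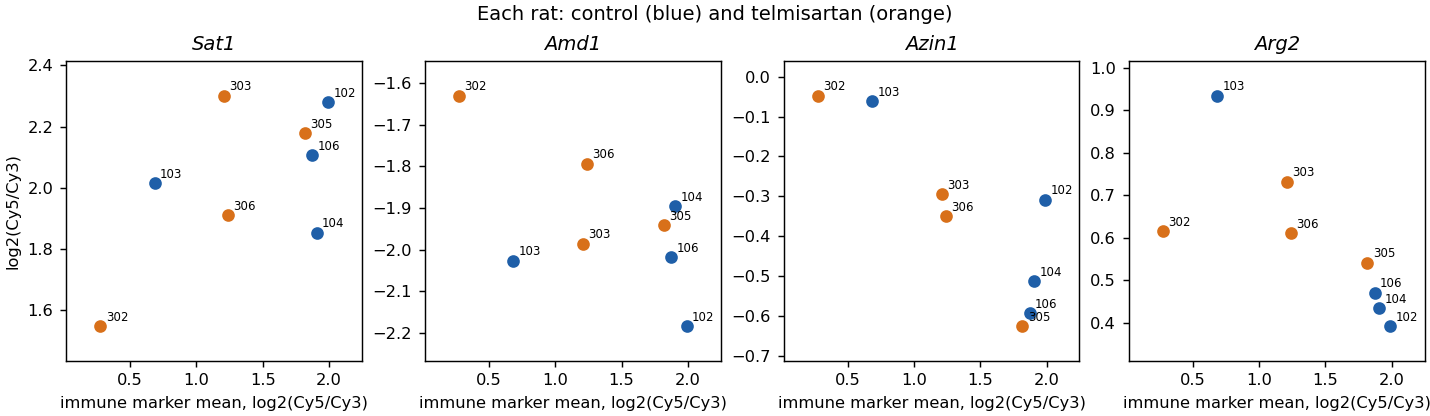
Log2 ratio of Sat1, Amd1, Azin1 and Arg2 in each rat against the mean log2 ratio of 27 immune marker genes in that rat (control blue, telmisartan orange, rat numbers beside the points). Azin1 (its brighter probe) and Arg2 tend to be lower in rats with a higher immune level. At the highest levels, however, Azin1 rises from Telmisartan 305 to Control 102. Telmisartan 302, at 0.275, has the lowest Sat1 and the highest Amd1.

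Other genes around the pathway were followed in a list of 50, of which 45 were on the array and 40 were measured. In treated rats 24 had a higher and 16 a lower mean, 27 and 13 under median centring, with a median difference of 0.04. None passed the adjusted threshold. At an unadjusted p under 0.05 there was 1 higher gene and 2 lower ones among the 40, beside 4.82% of all genes. Slc18b1, a vesicular polyamine transporter, was at -1.58 in control and -1.08 in treated rats, 0.50 higher (SE 0.21, limma adjusted p = 0.981). Its control rats ran from -2.01 to -1.13 and its treated rats from -1.31 to -0.77. Arg1, the cytosolic arginase, was at 2.21 in control and 1.32 in treated rats, 0.90 lower (SE 0.32, limma adjusted p = 0.981). Control 103 was the highest of the 8 for Arg1 at 2.91, as it was for Arg2, and Telmisartan 302 the lowest at 0.84. Aoc1, the diamine oxidase that degrades putrescine, was at 0.96 in control and 0.40 in treated rats, 0.56 lower (SE 0.24, limma adjusted p = 0.981). For Aoc1 the reference was not well above background on any array and Cy5 was on 7 of 8, so its values depend on the background correction: the difference was -0.81 with a normexp offset of 16, -0.90 under median centring and -1.23 with the scanner ratio. Single rats ran from -0.12 in Telmisartan 302 to 1.41 in Control 104.

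Over the reference, 3 of the 40 measured genes were more than 2-fold below it in all 8 rats (background 3.29%) and 0 were more than 2-fold above it (background 3.73%). These 3 were Adi1, Mat2a and Otc. Adi1, which works in the salvage of methylthioadenosine to methionine, was at -2.75 ± 0.34, and Mat2a, which makes S-adenosylmethionine, was at -2.17 ± 0.34 (SD, n = 8). Under median centring Adi1 and Mat2a were at -1.29 and -0.90. In the same group Ahcy, the hydrolase of S-adenosylhomocysteine, was at 1.18 ± 0.12. The 9 measured genes of the group had a median of -0.25, which became 0.79 under median centring.

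In the ornithine and arginine group, Otc, which uses ornithine to make citrulline, was at -1.77 ± 0.07 with the offset used here. Its Cy5 signal was well above background on 4 arrays only, so the size of this ratio depends on the background correction: it was -2.27 with an offset of 16 and -3.65 with the scanner ratio. Arg1 stood at 1.77 ± 0.71 over the 8 rats. Ass1, which makes argininosuccinate, was not well above background in the reference on any array, and its mean over the 8 rats was at least 2.81-fold higher, with single rats from 0.057 in Telmisartan 302 to 2.20 in Telmisartan 305. Among breakdown genes, Sat2, a relative of Sat1, was at -0.77 ± 0.28 under loess and 0.24 under median centring, away from the high ratio of Sat1. Hdac10, a polyamine deacetylase, was at 0.66 ± 0.15.

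Among transport genes Slc18b1 was at -1.33 ± 0.42, Gpc1, a glypican with a known part in polyamine uptake, was at 1.10 ± 0.26, and Slc12a8 was on average at least 2.38-fold higher over a reference that was not well above background. In the antizyme and Myc group Max was at -0.33 and Myc at -0.07 under loess, and at 0.63 and 1.24 under median centring, where the median gene was at 0.69. Azin2, a second antizyme inhibitor, was at 0.13 under loess and -0.07 under median centring, over a reference not well above background. Of the genes that put spermidine to use in hypusine, Dhps was at 0.39 and Eif5a at -0.14, and Eif5a was at 1.25 under median centring.

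**Figure D5:**
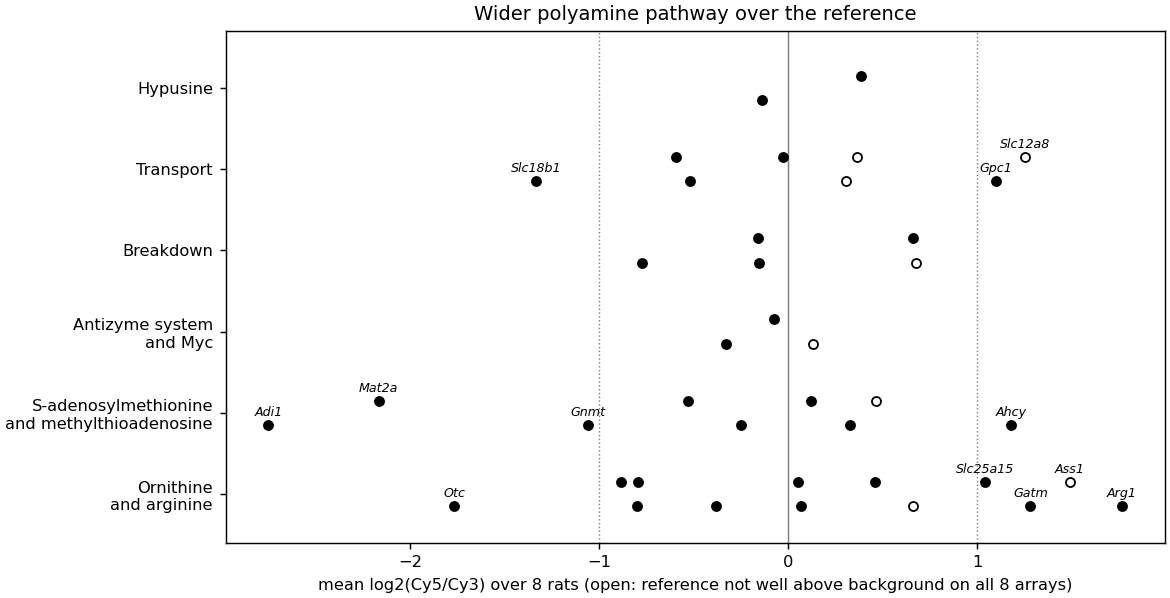
Mean log2 ratio over the reference (8 rats, loess) of 40 genes around the polyamine pathway, by role; dotted lines mark 2-fold and open circles are genes whose reference was not well above background on all 8 arrays. Adi1, Mat2a and Otc lie at -2.75, -2.17 and -1.77, below the reference and Arg1 lies at 1.77, above it; open circles are lower bounds and have no rank against the others.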

How the data were processed

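The array values are 2-colour Agilent spot intensities, and the labels give RNA extraction with ISOGEN and linear amplification. Mean and local background intensity of each channel were used as deposited by the authors, uncorrected. Per the file headers, Agilent Feature Extraction 9.1 also gave a log10 ratio, background-subtracted and dye-normalized, and flags for outlier, saturated and well-above-background spots. The deposited series table held the same log10 ratios in file order (median 0 on each array) and served as an alternative.

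In R 4.3.3, using limma 3.58.1, intensities were corrected by normexp (offset 50) and loess-normalized array by array, control spots having weight 0. Of 45018 spots per array, control and outlier spots were left out and spots of a probe were averaged. Probes well above background in the Cy5 channel of 4 or more arrays, with a value on all 8, were used (27226 of 41012), and the brightest of these stood for its gene (23207 genes). Names came from a RefSeq table of GRCr8: 10735 probes matched by accession, 5571 by current and 3729 by older symbol, and 20977 kept the file's name.

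Groups were compared with lmFit and eBayes, two-sided, Benjamini-Hochberg adjusted over all genes at 0.05, with group as the only term. Each array bears its own number in the labels, taken as 1 rat, and the number of arrays limits the precision. Correlations used exact permutation of 40320 pairings, two-sided, adjusted over 36 pairs or 9 members. The mean of 27 immune markers was taken per rat.

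Members and lists were chosen with earlier results of these data known. From the wider list the text names genes at an unadjusted p under 0.05 and up to 3 per role with the largest absolute mean ratio. Alternatives covered background correction, normalization, the dim-probe filter, probe choice, Cy5 alone, slide, variance model, array weights and each rat left out. The fit was tested on simulated data. The sources used here do not say whether the reference was 1 RNA pool.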

Additional observations from a re-analysis of the deposited data

Results flagged for a closer look

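In control rats Arg2 was 0.934 in Control 103, against 0.39 to 0.47 in the other 3 control rats, a gap larger than a Dixon test at the 95% level allows for 4 values (gap over range 0.854). Chance marks about 1 in 20 groups, and 1 of 23 groups of member values was marked. Control 103 also had the lowest immune marker level of the control rats (0.685). By the brighter probe it had the lowest Odc1 (-1.04), but by the second probe Control 102 was lowest (-0.76) and Control 103 read -0.68. The part of the immune level and of Odc1 in the Arg2 value was not tested.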

How the results depend on the processing

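No member was called in any of 191 refits of a member's difference (smallest adjusted p 0.532), and 9 of them turned direction. Several settings could not turn a direction, since they left each member's difference unchanged. These were intensity scaling between arrays, both changes of the dim-probe filter, slide as a term and the other variance model. Sat1 (-0.185 to 0.066 leaving out rats) became 0.027 under median centring, 0.0059 in Cy5 alone, 0.065 on slide 2 alone and 0.066 without Telmisartan 302, and Srm -0.013 on slide 2 alone. Leaving out rats, Azin1 ran from -0.054 to 0.14, with -0.0082 without Control 104, -0.035 without Control 106 and -0.054 without Telmisartan 302. Sms ran from -0.254 to 0.032, the latter without Telmisartan 303. Odc1 stayed positive, from 0.14 to 0.46. Levels over the reference turned only under median centring, to 0.79 for Odc1, 0.43 for Srm and 0.99 for Azin1, and 3 members were past 2-fold in the control rats in every setting (Amd1, Sms and Sat1, but Oaz1, Arg2 and Sat1 under median centring). Over all genes 0 were called in the other settings and 0 to 1 when 1 rat was left out (1 without Control 102 and 1 without Telmisartan 303), and 467 to 2597 had an unadjusted p under 0.05 over 21 settings. Adjusted pair correlations went from 0 to 1 when 1 rat was left out (Sms with Sat1 without Control 102, r = -0.964; Odc1 with Amd1 without Control 103, r = 0.944). Immune correlations likewise went from 0 to 1 (Azin1 without Control 102, r = -0.968; Arg2 without Telmisartan 302, r = -0.969), and 1 passed with the scanner ratio and 1 with slide means removed (Azin1, r = -0.905 and -0.850). The cause was not tested. The dimmer probe, added after the data were seen, gave 0.32 for Odc1 and a level of -1.10 for Azin1. Cy5 alone, slide, trend and weight settings gave no levels. No paired analysis was possible because the groups share no replicate number.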

Other observations

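Sbp, the androgen-dependent spermine-binding protein secreted by ventral prostate, was chosen after its values were seen. It read -4.26, -4.30, -4.11 and -4.17 in the control rats and -3.94, -4.04, -3.95 and -3.71 in the treated rats. The groups did not overlap, which held for 2.73% of all genes. The difference was 0.30 log2 units higher in treated rats (SE 0.10, limma adjusted p = 0.981), so it did not pass the adjusted threshold. Other secretory genes went both ways: the difference was 0.81 for Scgb1d2, 0.30 for Scgb2a1, 0.24 for Andpro, -0.03 for Klk1, -0.16 for Msmb and -0.36 for Pbsn, none past the adjusted threshold. In all 8 rats Sbp was far below normal F344 prostate, beside Amd1 and Sms at about -1.9.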
